A study of Mus musculus with 4 samples.

Results

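Coding exons hold 1245 of the 65467 ATAC-seq peaks called in control facial surface ectoderm. These are the control peaks on chromosomes 1 to 19 whose summit, the base with the strongest signal, lies in the coding sequence of a protein-coding gene's principal transcript, and whose centre is more than 1 kb from every protein-coding start site, with 1 start site per gene, that of its principal transcript. They are referred to as coding-exon peaks. No measure of height or of change entered this choice. Of the 63926 control peaks on these chromosomes, 1971 had their summit in coding sequence, and 726 of those were set aside because the centre lay within 1 kb of a start site. The distance rule cut through a continuous range: the nearest coding-exon peaks kept were in Kcnn3 at 1007 bp, Ppp1r18 at 1010 bp and Gm8909 at 1011 bp, with −log10 p at the summit of 3.30, 3.54 and 4.50. The nearest peaks left out were in Tulp1 at 982 bp, Agap2 at 975 bp and Prlhr at 962 bp, with 4.93, 4.23 and 4.95.

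The study profiled E11.5 mouse facial prominence ectoderm by ATAC-seq, which marks open DNA by where a transposase inserts. Control littermates carried the alleles Tfap2aflox/+ and Tfap2bflox/+ and lacked Crect, a Cre transgene active in the ectoderm. EDKO embryos (ectoderm double knockout) carried Crect with Tfap2aflox/flox and Tfap2bflox/flox, so that these 2 AP-2 transcription factor genes are lost in ectoderm. Floxed alleles were present in both groups. The study also reports Tfap2c, another AP-2 gene, at lower levels in this ectoderm. There were 2 libraries a group, and the authors combined them into a control list and into a list of AP-2-dependent regions, 3103 intervals called with the controls as signal and the EDKO libraries as background. Neither list holds a value for a single library, so no spread between embryos can be given, and every interval below covers counting error only.

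Open chromatin lies mostly at promoters, in introns and between genes, where transcription factors bind enhancers. Coding exons are under the added constraint of the genetic code, and can carry regulatory sites, starts of alternative transcripts and CpG islands, stretches rich in the dinucleotide CG that usually stay free of DNA methylation. AP-2 proteins bind a palindromic, GC-rich sequence as dimers and are among the main regulators of early surface ectoderm.

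The sequences below, read from the GRCm38 (mm10) assembly on the strand of the gene, reach 100 bp to each side of the summit, with coding bases in capitals and all other bases in lower case. The windows of Ube3b, Eif3k and Rab29 are shown because these coding-exon peaks overlapped AP-2-dependent regions with large areas.
Ube3b, coding exon 22 of 26, chr5:114412769-114412969, plus strand: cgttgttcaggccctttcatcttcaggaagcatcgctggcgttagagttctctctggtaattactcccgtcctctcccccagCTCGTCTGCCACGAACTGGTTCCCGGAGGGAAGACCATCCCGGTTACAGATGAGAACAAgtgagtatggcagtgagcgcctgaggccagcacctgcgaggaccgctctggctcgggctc
Eif3k, coding exon 7 of 8, chr7:28972508-28972708, minus strand: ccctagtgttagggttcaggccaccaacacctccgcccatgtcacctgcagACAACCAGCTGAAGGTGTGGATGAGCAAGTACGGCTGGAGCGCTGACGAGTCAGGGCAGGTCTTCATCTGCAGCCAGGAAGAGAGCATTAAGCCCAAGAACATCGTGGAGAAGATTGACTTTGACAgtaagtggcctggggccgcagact
Rab29, coding exon 4 of 5, chr1:131872010-131872210, plus strand: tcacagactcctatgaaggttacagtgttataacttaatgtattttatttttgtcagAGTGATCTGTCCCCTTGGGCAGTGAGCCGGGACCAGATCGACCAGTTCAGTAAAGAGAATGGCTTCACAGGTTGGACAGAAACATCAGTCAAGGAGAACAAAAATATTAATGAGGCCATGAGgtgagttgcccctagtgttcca
The Ube3b window holds the AP-2 string GCCTGAGGC from base 160, in the intron that follows the exon. The Eif3k window holds GCCTGGGGC from base 185, also past the coding bases. The Rab29 window lacks GCCNNNGGC but holds CCCTTGGGC, a match to a second AP-2 consensus, from base 69 in the coding part. The windows of Prdm2, Crybg2 and Kank3 are from the tallest coding-exon peaks in single-copy sequence that overlapped no AP-2-dependent region, and Sptbn4 is a gene with several coding-exon peaks.
Prdm2, coding exon 5 of 8, chr4:143162068-143162268, minus strand: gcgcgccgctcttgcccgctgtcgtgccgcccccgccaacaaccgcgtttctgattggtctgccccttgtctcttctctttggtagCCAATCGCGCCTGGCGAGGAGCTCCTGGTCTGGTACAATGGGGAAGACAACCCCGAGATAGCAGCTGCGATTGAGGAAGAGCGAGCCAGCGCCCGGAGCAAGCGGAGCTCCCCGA
Crybg2, coding exon 11 of 19, chr4:134081943-134082143, plus strand: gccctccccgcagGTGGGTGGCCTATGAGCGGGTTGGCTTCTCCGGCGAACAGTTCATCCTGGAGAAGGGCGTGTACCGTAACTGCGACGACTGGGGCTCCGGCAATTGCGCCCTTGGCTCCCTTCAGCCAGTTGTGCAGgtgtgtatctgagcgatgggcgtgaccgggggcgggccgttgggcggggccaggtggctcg
Kank3, coding exon 2 of 10, chr17:33817639-33817839, plus strand: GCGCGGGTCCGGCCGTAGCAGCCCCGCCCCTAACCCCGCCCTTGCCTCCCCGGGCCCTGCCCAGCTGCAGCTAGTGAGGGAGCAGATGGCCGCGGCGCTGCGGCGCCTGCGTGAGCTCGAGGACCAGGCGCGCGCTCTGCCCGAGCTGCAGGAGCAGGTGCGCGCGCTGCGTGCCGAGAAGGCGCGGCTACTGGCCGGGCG
Sptbn4, coding exon 32 of 35, chr7:27361571-27361771, minus strand: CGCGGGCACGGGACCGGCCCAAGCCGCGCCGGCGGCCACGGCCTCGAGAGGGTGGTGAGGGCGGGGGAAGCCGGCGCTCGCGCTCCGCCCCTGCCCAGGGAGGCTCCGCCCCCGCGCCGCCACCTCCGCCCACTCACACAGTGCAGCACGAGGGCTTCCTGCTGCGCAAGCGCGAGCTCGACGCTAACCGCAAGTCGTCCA
These windows hold between 17 and 29 CG dinucleotides, against 2 to 12 in Ube3b, Eif3k and Rab29. The string GCCNNNGGC is present here too, as GCCCTTGGC from base 111 in Crybg2 and GCCGGCGGC from base 28 in Sptbn4, both in coding bases. The Prdm2 and Kank3 windows match neither AP-2 consensus. The windows of Gm21738 and Gm10801, the tallest of the coding-exon peaks, are shown because they share a repeated sequence.
Gm21738, coding exon 3 of 6, chr14:19417242-19417442, minus strand: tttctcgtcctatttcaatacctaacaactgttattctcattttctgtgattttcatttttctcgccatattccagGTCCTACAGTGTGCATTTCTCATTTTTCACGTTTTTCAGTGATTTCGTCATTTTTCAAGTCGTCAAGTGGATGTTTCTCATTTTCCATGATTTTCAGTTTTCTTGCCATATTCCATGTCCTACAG
Gm10801, coding exon 3 of 4, chr2:98663795-98663995, plus strand: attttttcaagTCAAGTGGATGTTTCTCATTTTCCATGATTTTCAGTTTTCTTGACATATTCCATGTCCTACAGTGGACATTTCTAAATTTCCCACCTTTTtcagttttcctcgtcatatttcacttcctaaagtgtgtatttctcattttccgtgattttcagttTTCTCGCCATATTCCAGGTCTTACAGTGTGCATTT
Of the 190 words of 12 bases in the Gm10801 window, 130 (68.4%) occur in the Gm21738 peak on chromosome 14, while no other coding-exon peak window shared more than 1.05% of its words with that peak. The sequence 500 bp to each side of the Gm21738 summit matched itself at 89.4% of bases when shifted by 351 bp, against a median best match of 31.4% over all coding-exon peaks.

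Control summits were denser in coding exons than in any other annotated sequence beyond 1 kb from start sites. Coding exons held 42.8 summits per Mb (95% Poisson interval 40.4 to 45.2), untranslated exons 35.6 (33.2 to 38.1), introns 25.4 (25.1 to 25.8) and sequence between genes 19.1 (18.9 to 19.3). In number they were few, 1.95% of autosomal control peaks, against 20600 peaks in introns and 28546 between genes. Coding-exon peaks had a median −log10 p at the summit of 5.00 (95% interval 4.88 to 5.17), with quartiles of 4.05 and 6.31 and a range from 2.87 to 29.99. Intron peaks had a median of 4.66 (4.63 to 4.68) and peaks within 1 kb of a start site 9.30 (9.22 to 9.38). The coding-exon peaks were therefore slightly taller than intron peaks and far below those at start sites. They were also wider, with a median of 649 bp (623 to 682) against 472 bp (467 to 477) in introns and 1329 bp (1314 to 1344) near start sites.

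**Figure D1:**
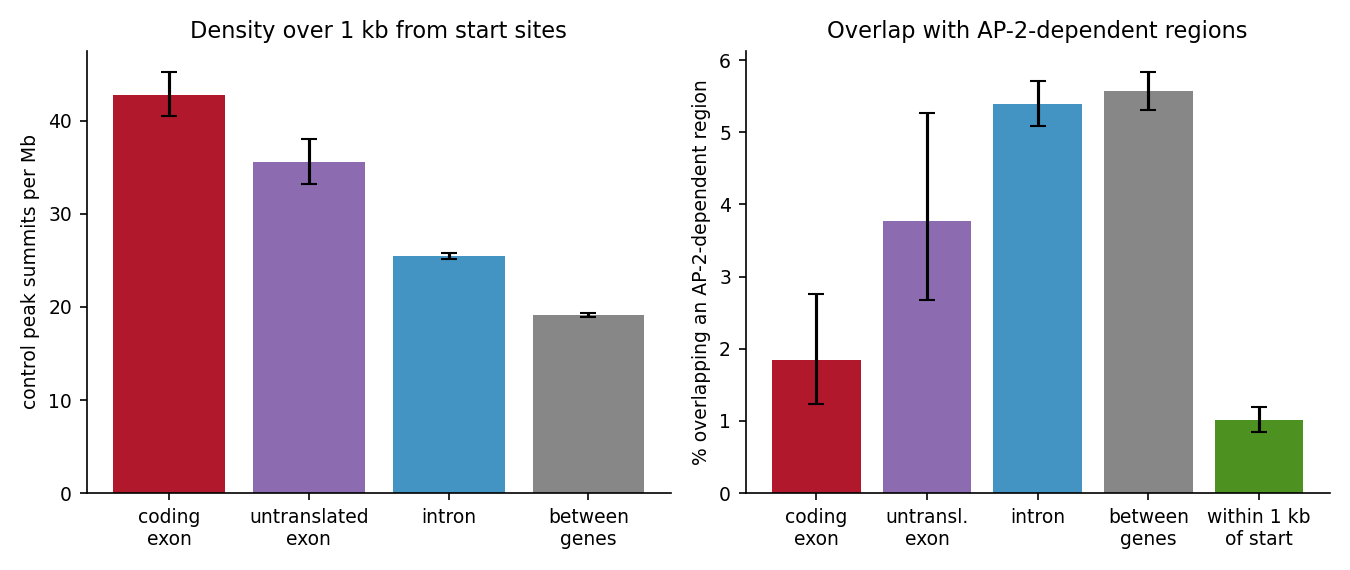
Left, summits of control peaks per Mb of annotated sequence more than 1 kb from start sites, with 95% Poisson intervals. Right, the percentage of control peaks in each class that overlap an AP-2-dependent region, with 95% Wilson intervals. Coding exons have the highest density, 42.8 per Mb, and a share of 1.85%, below the 5.39% of intron peaks.

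Most coding-exon peaks were not confined to the exon. The median exon carrying a summit had 253 coding bp, and the median coding-exon peak was 50.9% coding (quartiles 33.5% and 74.4%). Only 125 peaks lay wholly inside the coding part of the exon, 822 reached past both of its ends and 298 past 1 end, and 285 touched at least 2 coding exons of the gene. The peak in Tmem191c touched 10 coding exons. The shortest exon with a summit had 18 coding bp and the longest, in Eppk1, 10374. Eppk1 encodes epiplakin, a cytoskeletal linker of epithelia built from repeated plakin domains, and its peak was 3321 bp wide with a summit of 4.63. For 10 peaks the exon belonged to more than 1 gene, and 1 exon is shared by 24 genes of the clustered protocadherins.

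Summits were not spread evenly over exons. First, last and single coding exons held 70 (56.9 to 85.1), 68.4 (61.1 to 76.3) and 60.8 (48.2 to 75.6) summits per Mb of coding sequence, against 34.0 (31.6 to 36.6) in internal coding exons. The internal exons still held 744 of the 1245, the last 321, the first 100 and single exons 80. By coding length, the density rose from 27.4 per Mb (22.4 to 33.2) in exons under 100 bp to 82.4 (69.4 to 97.2) at 300 to 500 bp and 78.4 (68.4 to 89.5) at 500 to 1000 bp. It was 30.5 (23.2 to 39.3) in exons of 2000 bp or more, so neither the shortest nor the longest exons were dense. Over the first 20% of the coding sequence there were 37.7 per Mb (32.2 to 43.8) and over the last 20% 48.0 (42.8 to 53.7), counting only bases more than 1 kb from a start site.

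**Figure D2:**
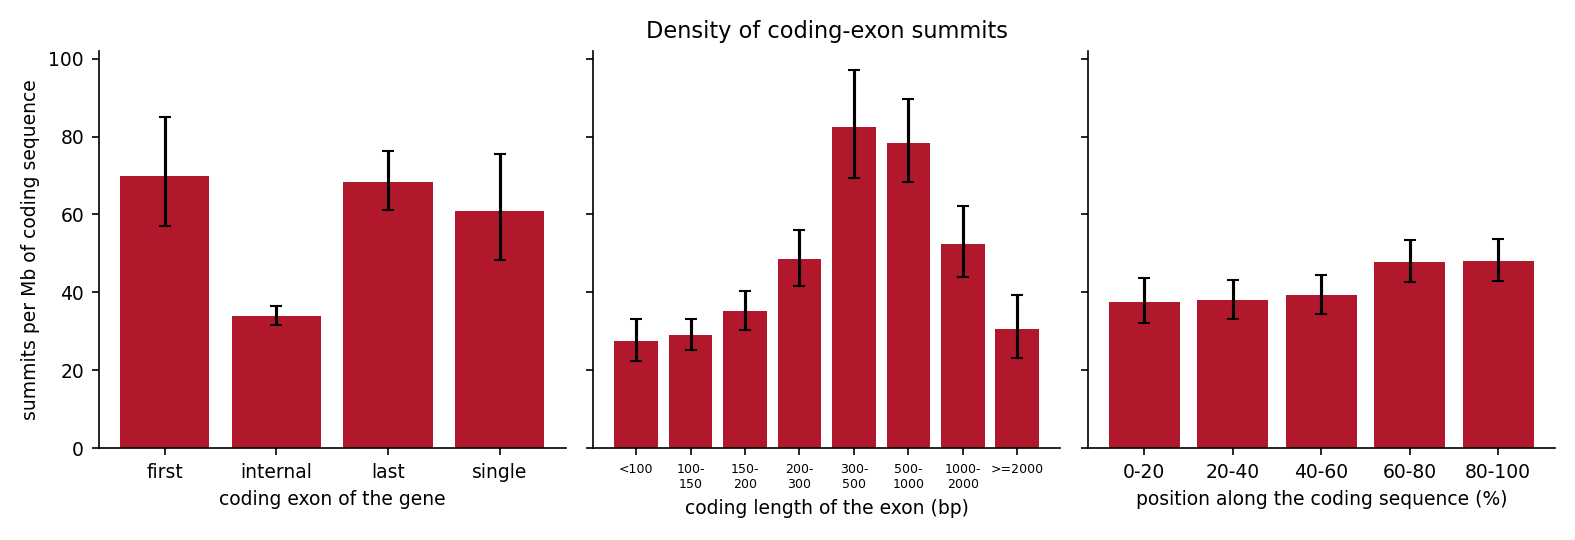
Coding-exon summits per Mb of coding sequence more than 1 kb from start sites, by place of the exon in the gene (left), by coding length of the exon in bp (middle) and by position along the coding sequence in percent (right), with 95% Poisson intervals. Exons of 300 to 500 bp reach 82.4 per Mb, against 27.4 in those under 100 bp.

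The coding-exon peaks were set apart from intron peaks and from other coding exons by their base composition. The sequence 100 bp to each side of the summit had a median GC content of 62.2% (quartiles 56.2% and 68.2%), against 50.7% in introns and between genes, 65.7% near start sites and 49.8% in windows centred on 164239 coding exons that no control peak touched. The windows held a median of 11 CG dinucleotides, against 3 in intron peaks, 4 in untouched exons and 17 near start sites. Among exons longer than 200 coding bp, which are no shorter than the window, the 738 with a coding-exon peak had a median GC content of 65.7% and the 25110 without a peak 53.2%. At the third base of codons, the base most free to vary, GC content was 73.2% in coding-exon peaks and 57.1% in untouched exons. At the first base it was 65.6% against 55.1%, and at the second 51.2% against 40.6%, so the difference was present at all codon positions. Coding-exon peaks also lay nearer to start sites, at a median of 7.83 kb, against 31.1 kb for intron peaks and 41.9 kb for peaks between genes. The part of this distance in the differences of base composition, height and width between peak classes was not tested.

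**Figure D3:**
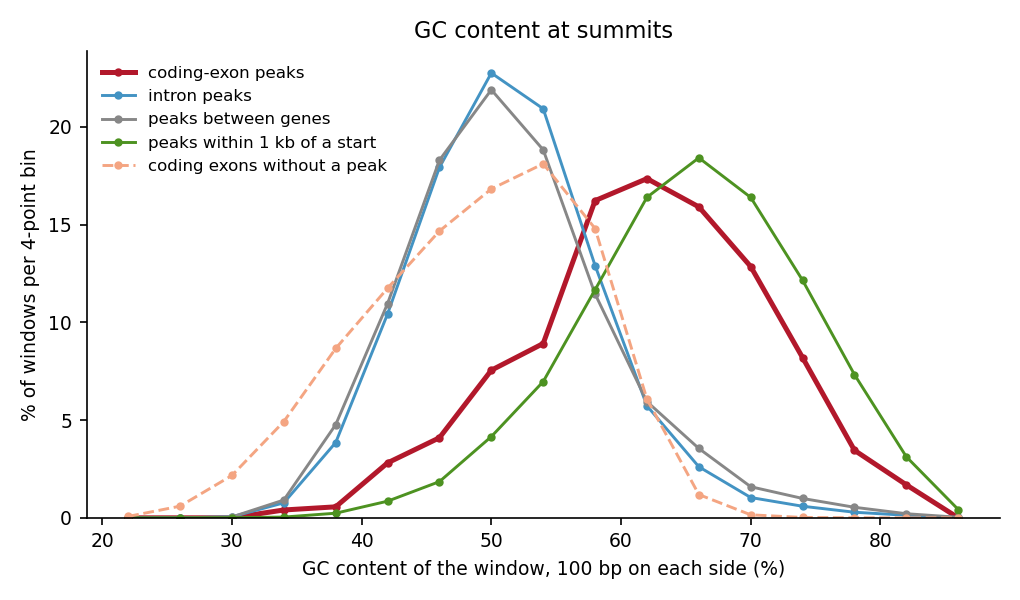
Distribution of GC content (percent, 4-point bins) in windows 100 bp to each side of the summits of coding-exon peaks, intron peaks, peaks between genes and peaks within 1 kb of a start site, and at the centre of coding exons without a control peak. The coding-exon peaks, median 62.2%, lie close to the peaks at start sites and apart from untouched exons, median 49.8%.

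CpG-island-like sequence, meaning a peak of at least 200 bp with GC content above 50% and an observed to expected CG ratio above 0.6, made up 457 coding-exon peaks, 36.7% (95% Wilson interval 34.1 to 39.4). The share was 3.53% (3.29 to 3.79) in introns, 6.71% (6.43 to 7.01) between genes and 65.8% (65 to 66.6) near start sites. Island-like coding-exon peaks had a median summit of 5.45 and width of 884 bp, against 4.83 and 549.5 bp for the other 788. Of the island-like coding-exon peaks 145 (31.7%) had another annotated transcript start within 1 kb of the summit, much like the 233 (29.6%) of the others. In introns the corresponding shares were 49.5% and 12.1%, so nearness to a start went with island-like sequence there and hardly did so in coding exons.

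Over all coding-exon peaks, the start of some other annotated transcript lay within 1 kb of 378 summits, 30.4% (27.9 to 33), against 13.5% of intron peaks and 21.5% of untouched coding exons. The start belonged to a protein-coding transcript of the same gene for 118 peaks, to another transcript of the same gene for 206, to a non-coding gene or pseudogene for 46 and to another protein-coding gene for 8. Peaks near the start of a protein-coding transcript of the same gene had a median summit of 5.27, those near a non-coding gene 5.67, those near another transcript of the same gene 4.94, and the 867 with no start nearby 4.95. Of the 100 tallest coding-exon peaks 37 had such a start nearby and 52 were island-like.

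The tallest coding-exon peaks were in Gm21738, with a summit of 29.99, and Gm10801, with 16.98, the pair that shares a repeated sequence. Both are predicted gene models. Both count as 1 copy by exact words of 31 bases, the aligner could place a read pair at up to 10 positions, and the part of similar sequence elsewhere in these heights was not tested. B430305J03Rik followed with a summit of 14.21 in a gene of 1 coding exon (chr3:61362822-61366342). Prdm2, a PR-domain zinc finger gene, had 13.94 (chr4:143161432-143162692), a peak that was 10.1% coding and 50.6 kb from the nearest protein-coding start site. Crybg2, a gene of the crystallin-domain family, reached 13.65 (chr4:134081119-134082770), with another Crybg2 transcript starting 269 bp from the summit. Kank3, an ankyrin repeat gene, reached 13.32 with another transcript start at 168 bp, and its peak was 83.1% coding. Carns1, the carnosine synthase gene, reached 12.38 with the start of another protein-coding transcript at 120 bp, and Inpp5b, an inositol polyphosphate phosphatase gene, 12.76 with the pseudogene or non-coding gene Gm12915 starting at 198 bp. Angptl6, which encodes an angiopoietin-like protein, had 13.02, and Sptbn4, the gene of a beta spectrin of axons, 12.32, neither with a start within 1 kb. The lowest of these 10 values exceeded those of 96.6% of autosomal control peaks.

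With each peak credited to 1 gene, the coding-exon peaks fell in 1142 genes, 6.05% of the 18871 with coding sequence more than 1 kb from start sites. Of these genes 1055 had 1 such peak, 75 had 2, 10 had 3 and 2 had more than 3. Sptbn4 had 5, in coding exons 13, 15, 16, 26 and 32, with summits from 3.63 to 12.32 and GC contents from 60.2% to 76.6%. Sfi1, which encodes a centrosome protein, also had 5, with summits in the narrow span from 5.46 to 5.93 and GC contents from 54.7% to 62.2%. Over its 61.6 kb Sfi1 held 35 control peaks in all, against 13 over the 90.2 kb of Sptbn4. Crybg2, Rasip1, Ltbp4, Ccdc162, Jak3 and Tbx3 were among the 10 genes with 3. All 3 control peaks within Crybg2 and all 3 within Rasip1, a Ras-interacting protein gene of vessels, were coding-exon peaks. In Rasip1 the summits were 10.17, 4.37 and 9.83, and the last of these lay 1.10 kb from the nearest protein-coding start site.

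Among the gene lists, transcription factors of ectoderm and face had the highest share of genes with coding-exon peaks, close to that of the NOTCH list. Of 63 such genes 21 (33.3%) had at least 1, against 8 of 26 (30.8%) in the NOTCH list and 6.05% of all genes. Their 26 peaks gave a density of 350.4 per Mb (229 to 513), against 42.5 per Mb over all protein-coding genes. That interval overlapped those of the NOTCH list (59.9 to 249) and of neural crest and mesenchyme regulators (56.6 to 336). Differences between lists were not tested. The transcription factor genes have short coding sequences (0.0742 Mb eligible in all). Their coding-exon peaks lay at a median of 4.18 kb from the nearest start site, against 7.83 kb for all coding-exon peaks. They had a median summit of 5.15, close to the 5.00 of all coding-exon peaks, a median width of 1053 bp against 649 bp, and 10 (38.5%) were island-like, close to the share in all. The homeobox genes Dlx1, Dlx2, Dlx3, Irx2, Irx4, Irx5, Irx6, Meis1, Msx1, Msx2, Pitx1 and Six2, the paired box gene Pax9, the T-box genes Tbx2 and Tbx3, Klf4, Klf5, Tfap2a and Tfap2b were among the 21. Many are patterning genes of the jaw and of tooth and lip primordia, and Klf4 and Klf5 act in epithelial differentiation. Klf4 had a summit of 7.27 and a width of 2465 bp in coding exon 3 of 5. Irx4 had 7.26 in the last of its 5 coding exons, which holds 2 AP-2 strings within 100 bp, and 5.32 in coding exon 2. Msx1 had 5.03 and Msx2 3.82, each in the last of 2 coding exons. Of the 26 peaks 11 lay in the last coding exon and 13 in internal ones. An AP-2-dependent region was overlapped by 1 of the 26, in Tfap2a, against 1.85% of all coding-exon peaks. A list of this size cannot be told apart from that share.

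Signalling genes also carried coding-exon peaks more often than all genes. The NOTCH list had 8 of 26 genes (30.8%) and 131 peaks per Mb (59.9 to 249), the WNT list 12 of 77 (15.6%) and 86.7 (46.2 to 148), and the list of BMP, FGF and hedgehog genes 8 of 55 (14.5%) and 97.4 (44.5 to 185). Their median summits were 5.77, 4.97 and 5.42. In the NOTCH list the receptor Notch4 had 11.55 in the last of 30 coding exons, the target gene Hey1 8.08 in the last of 5, the ligand Dll3 7.81 and the receptor Notch3 5.77. In the WNT list the ligands Wnt10a and Wnt6 had 10.12 and 8.85, each in the last of 4 coding exons and in peaks of 3467 and 2950 bp, the receptor-related Lrp4 had 8.64 and the cadherin Celsr3 7.14. Fgf8, a ligand made by facial ectoderm, had 8.27 in the last of 6 coding exons, Kif7, a kinesin of hedgehog signalling, 8.16, Smad1, a mediator of BMP signals, 7.03 and Dhh, a hedgehog ligand, 5.43. An AP-2-dependent region was overlapped by 0 of 9, 0 of 13 and 0 of 9 coding-exon peaks in these lists, against 1.85% of all coding-exon peaks, and lists of this size cannot be told apart from that share.

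Of 54 structural genes of epithelia, those of epithelial adhesion and cytoskeletal linkers, 3 (5.56%) had a coding-exon peak: Eppk1 with 4.63, Evpl, the envoplakin gene, with 3.95, and Nectin4, an adhesion receptor gene, with 3.87. The list's density was 15.5 per Mb (3.19 to 45.2), against 42.5 over all genes, which the interval just includes. Basement membrane and collagen-related genes had 6 of 33 genes (18.2%) with 10 peaks, 46.0 per Mb (22.1 to 84.6), and 2 of these 10 overlapped an AP-2-dependent region, in Npnt and Fbn2, against 1.85% of all coding-exon peaks. Those regions, with areas of 208 and 213, were the smallest that any coding-exon peak overlapped. The lists were chosen with earlier results known, and whether this share differs from 1.85% was not tested. Chromatin regulators of congenital disease, long genes with 0.242 Mb of eligible coding sequence, had 1 peak, in Smarca2, or 4.13 per Mb (0.105 to 23). Neural crest and mesenchyme regulators had 6 of 30 genes (Barx1, Col1a1, Foxd3, Hand2, Osr2 and Postn), 20% and 154 per Mb (56.6 to 336), an interval that overlaps those of the signalling lists. None of these 6 peaks lay more than 5 kb from a start site, against 791 of all 1245 coding-exon peaks. The transcription factor list had 10 of 26 beyond 5 kb and the NOTCH list 4 of 9. The WNT list had 10 of 13 and the list of BMP, FGF and hedgehog genes 5 of 9. Genes of other lineages, such as muscle and glia, had 2 of 23, Gfap with 6.50 and Ttn with 4.06. Collagen genes had 4 of 42, zinc finger genes by symbol 20 of 447 at 24.3 per Mb (14.9 to 37.5), and clustered protocadherins 2 of 56. The last count credits each peak to 1 gene, although 1 exon with a summit is shared by 24 genes of the clustered protocadherins. Olfactory receptor genes had 0 of 296 with eligible coding sequence, and a count of 0 over their 0.145 Mb allows up to 20.7 per Mb. Medians of the summit in the lists with at least 6 peaks lay between 4.08 and 5.77.

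Short sequence strings known from transcription factor binding were searched within 100 bp of the summit on both strands. The AP-2 string GCCNNNGGC was present at 247 coding-exon summits, 19.8% (17.7 to 22.2), against 12% (11.6 to 12.5) of intron peaks, 22.2% (21.5 to 22.9) of peaks near start sites and 6.09% (5.97 to 6.21) of untouched coding exons. The excess over introns depended on the string. A second AP-2 consensus, which reads C or G, then CC, a pyrimidine, any base, a purine, GG and C or G, was at 19.4% (17.3 to 21.6) of coding-exon summits, 21.2% (20.6 to 21.7) of intron summits, 20.1% (19.6 to 20.6) between genes and 7.19% (7.07 to 7.32) of untouched coding exons. The SP/KLF string GGGCGG was at 26.8% (24.4 to 29.4), against 11.5% of intron peaks, 61.2% of peaks near start sites and 4.53% of untouched coding exons. The ETS string CCGGAAG was at 3.21% (2.37 to 4.35), between intron peaks at 1.48% and peaks near start sites at 13.3%. The strings with fewer G and C went the other way. The AP-1 string TGANTCA was at 2.01% (1.36 to 2.95) of coding-exon summits and 6.55% of intron summits, the TEAD string GGAATG at 11.4% (9.76 to 13.3) and 21.3%, the GRHL string AACNNGTT at 3.86% (2.92 to 5.07) and 5.75%, and the p53 family consensus at 4.74% (3.69 to 6.06) and 11%. Untouched coding exons had 4.72% for AP-1, above the coding-exon peaks, and 10.4% for TEAD and 4.40% for the p53 family, both within the intervals of the coding-exon peaks.

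**Figure D4:**
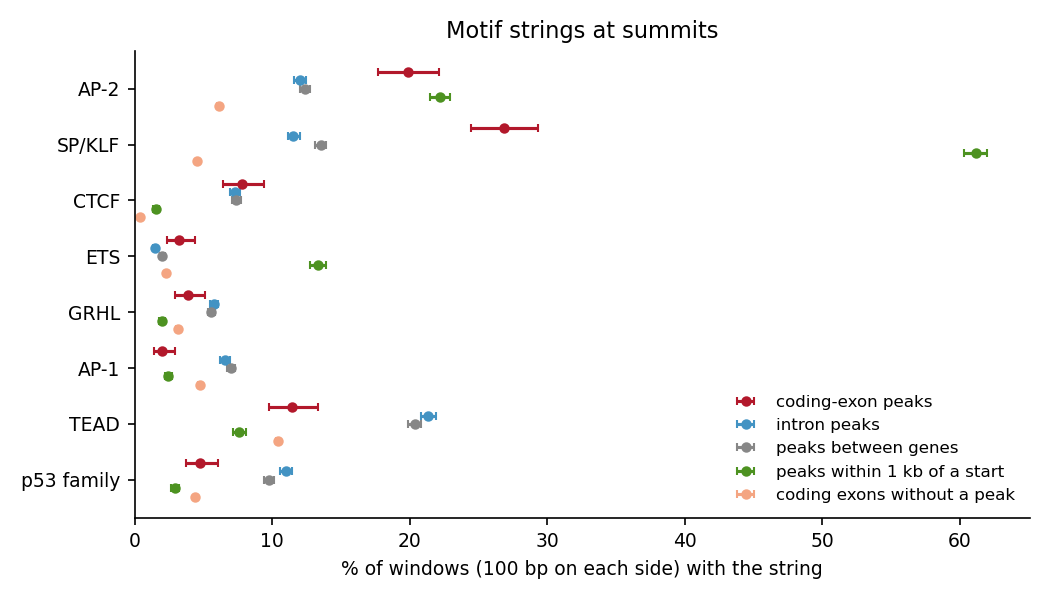
Percentage of windows, 100 bp to each side of the summit, that hold each string on either strand, for coding-exon, intron and between-gene peaks, peaks within 1 kb of a start site and the centres of coding exons without a peak, with 95% Wilson intervals. Coding-exon peaks reach 19.8% for the AP-2 string GCCNNNGGC and 26.8% for SP/KLF, and share 7.79% for CTCF with the 7.29% of intron peaks.

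The CTCF consensus, the site of the insulator protein CTCF, behaved unlike the others. It was at 97 coding-exon summits, 7.79% (6.43 to 9.41), close to 7.29% in introns and 7.39% between genes and below 12.8% (10.8 to 15.3) in untranslated exons, and was rare near start sites (1.52%) and in untouched coding exons (0.400%). Matches were few between 25 and 50 bp from the summit. Of the 99 coding-exon peaks with a match within 200 bp, 33 had the nearest one within 25 bp of the summit, 8 between 25 and 50 bp, 38 between 50 and 75 bp, 19 between 75 and 100 bp and 1 further out. Intron peaks had 681, 128, 528, 167 and 54 in these bins, also with few at 25 to 50 bp. The median distance was 63 bp in coding-exon peaks and 46 bp in intron peaks, a difference that was not tested. The 97 peaks were in 97 genes, 71 were in internal coding exons, 11 were island-like, and the median width was 463 bp. The tallest of them, singled out after the values were seen, were in Asb2 with 10.79, Rasip1 with 10.17, Gpr153 with 9.84 and Slco4a1 with 9.83. None of the 97 overlapped an AP-2-dependent region, which allows a share of up to 3.09% and so includes the 1.85% of all coding-exon peaks.

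The AP-2 strings of coding-exon peaks were read in the frame of the gene. Of 254 strings wholly within coding sequence, 111 (43.7%, 37.7 to 49.8) began at the first base of a codon, 79 (31.1%, 25.7 to 37) at the second and 64 (25.2%) at the third. In untouched coding exons, 50.4% (49.3 to 51.6) of 7541 began at the first base and 22.2% (21.3 to 23.2) at the second. The intervals of the sets overlapped for the first base and were apart for the second, where coding-exon peaks had the larger share.

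Few coding-exon peaks overlapped an AP-2-dependent region, and a peak without such an overlap was not shown to keep its accessibility. Of the 1245, 23 (1.85%, 1.23 to 2.76) overlapped an AP-2-dependent region, against 4.51% of all autosomal control peaks and 5.37% of those more than 1 kb from start sites. The share was 5.39% (5.09 to 5.71) in introns, 5.57% (5.31 to 5.84) between genes, 3.77% (2.68 to 5.27) in untranslated exons and 1.01% (0.849 to 1.20) within 1 kb of a start site. Both lists draw on the same control libraries, and the share rises with the height of the control peak. In 4 groups of summit height, cut at −log10 p of 4.08, 5.10 and 7.29 so that each holds as many autosomal control peaks, coding-exon peaks had 0.631%, 1.23%, 2.01% and 4.39% (2.33 to 8.13), and intron peaks 0.847%, 2.72%, 7.63% and 18.2% (16.8 to 19.8). The intervals overlapped in the lower groups and parted in the upper ones. Viewed from the other list, 25 of 3010 autosomal AP-2-dependent regions (0.831%, 0.563 to 1.22) had their own summit in coding sequence beyond 1 kb from a start site, and 18 of these overlapped a coding-exon peak.

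The share fell steeply with GC content. It was 7 of 58 coding-exon peaks (12.1%, 5.97 to 22.9) below 45% GC, 10 of 215 (4.65%, 2.55 to 8.35) at 45 to 55%, 6 of 508 (1.18%, 0.542 to 2.55) at 55 to 65%, and 0 of 464 at 65% or more, which allows a share of up to 0.647%. The 7 include Gm21738 and Gm10801, the pair that shares a repeated sequence, with GC contents of 35.3% and 34.8%. Intron peaks had 7.98%, 5.40%, 3.71% and 2.78% (1.84 to 4.18), so the classes had overlapping intervals below 55% GC and differed above it. By distance from the nearest start site the share was 1.10% at 1 to 5 kb, 1.59% at 5 to 20 kb, 2.82% at 20 to 100 kb and 4.55% (3 of 66, 1.56 to 12.5) beyond, and in introns 3.01%, 4.57%, 5.86% and 7.13%. When intron peaks were weighted to the coding-exon peaks' mix of summit height, GC content and distance, their share came to 2.98% in place of 5.39%, and that of peaks between genes to 2.09% in place of 5.57%. The first of these lies just above the coding-exon interval of 1.23 to 2.76% and the second inside it. Weighting by height alone gave 6.36% for introns and by GC content alone 3.85%. Island-like coding-exon peaks overlapped in 2 of 457 cases and the others in 21 of 788, and peaks with another transcript start within 1 kb in 1 of 378 (0.265%) against 22 of 867 (2.54%).

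**Figure D5:**
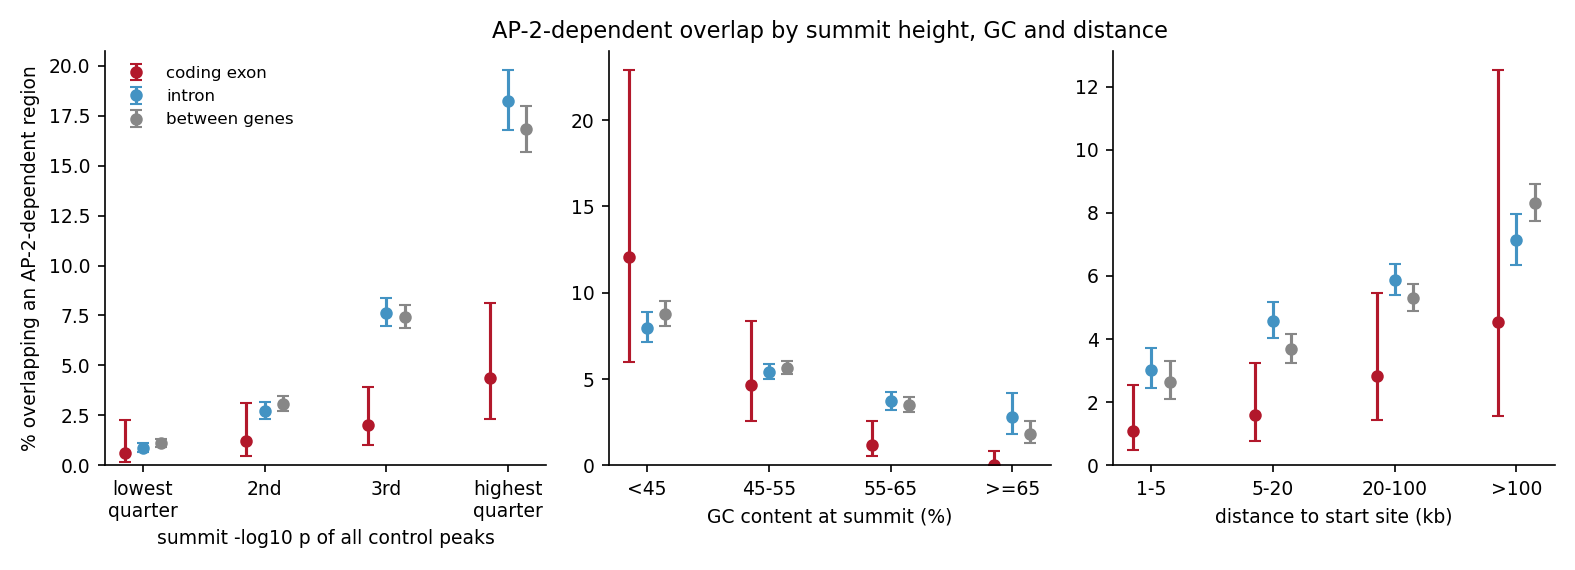
Percentage of coding-exon, intron and between-gene peaks that overlap an AP-2-dependent region, by group of summit −log10 p (left), GC content in percent (middle) and distance to the nearest start site in kb (right), with 95% Wilson intervals and a separate vertical scale in each panel. Coding-exon peaks fall from 12.1% below 45% GC, a group that includes the repeated pair Gm21738 and Gm10801, to 0 of 464 at 65% or more.

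The intervals for GCCNNNGGC overlapped between these 23 and the others, while those for the second AP-2 consensus did not. GCCNNNGGC was at 6 of the 23 (26.1%, 12.5 to 46.5) and at 241 of the other 1222 (19.7%, 17.6 to 22). The second AP-2 consensus was at 15 of the 23 (65.2%, 44.9 to 81.2) and at 226 of the other 1222 (18.5%, 16.4 to 20.8). The 2 consensus strings overlap, and a sequence can match both, as in Ube3b and Eif3k. The 23 peaks had a median GC content of 48.8% against 62.2% in the others, 5 CG dinucleotides against 11, a width of 520 against 650.5 bp, a summit of 6.05 against 4.97 and a distance to the nearest start site of 17.2 against 7.69 kb. Of the 23, 19 lay in internal coding exons, and in 17 the 2 summits were within 50 bp of each other.

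The largest area of an AP-2-dependent region over a coding-exon peak was at Gm21738, 159840 with a summit of 377.7 over 4030 bp, and the next at Gm10801, 2587 with 19.2. These are the repeated pair shown above, and the heights stand far from the remaining 21, whose areas ran from 208 to 1317. Ube3b, which encodes a ubiquitin ligase, led those, with a control summit of 9.49 and a region summit of 7.43 at the same base of coding exon 22. Tfap2a had the next, 1025, at a control peak of 3223 bp with its summit in exon 6 of 7. That region (chr13:40719309-40720099) covered 25 bp of exon 6 and otherwise lay in the intron towards exon 5, its own summit was not coding, and exons 5 and 6 are those flanked by loxP sites, so loss of the DNA and loss of accessibility cannot be told apart in EDKO ectoderm. A further coding-exon peak in Tfap2a, in coding exon 2 with a summit of 5.84, and one in coding exon 2 of Tfap2b with 3.39, overlapped no AP-2-dependent region.

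Eif3k, a translation initiation factor gene, had a control summit of 9.84 and a region area of 960 with the summits at the same base of coding exon 7. Rab29, a small GTPase gene, had 6.05 and 806, and there control peak and region had the same 426 bp. Crim1, which encodes a transmembrane protein that binds BMPs, had 6.72 and 447 in coding exon 3, 79.9 kb from the nearest start site, and was the only 1 of the 23 with another transcript start within 1 kb. Dnah5, an axonemal dynein gene, had 4.93 and 429 in coding exon 68 of 79, 217.9 kb from a start site. Sult1e1, the estrogen sulfotransferase gene, had 5.00 in both lists, with both summits at the same base of its last coding exon. Mta3, a subunit gene of the NuRD complex, had 7.31 and a region area of 392, and Tll1, a tolloid-like protease gene, 5.80 and 374. Tcof1, the gene affected in Treacher Collins syndrome, had 5.85 and 233 in coding exon 7 of 24. Npnt, which encodes the basement membrane protein nephronectin, had a control summit of 10.53 with an area of 208, the lowest of the 23, over 147 bp of a control peak of 1060 bp. The peaks in Zfp961 and Ccdc158 were wholly coding. The remaining peaks of the 23 were in Hsf5, Cntnap4, Srgap1, B430305J03Rik, Dtx3, Iqch, Cog7 and Fbn2, with region areas from 213 to 604.

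Few coding-exon peaks counted as repeated by exact words or by matching themselves when shifted. By the number of times their words of 31 bases occur in the assembly, 30 (2.41%) had 2 or more copies, against 5.03% in introns and 11% between genes. At least 70% self-identity, a limit set after the sequences were seen, was reached by 4 coding-exon peaks, among them those in Gm21738, 2410141K09Rik and Zscan2. The peak in 2410141K09Rik matched itself at 87% of bases at a shift of 252 bp, and that in Zscan2 at 71.7% at 336 bp. Both measures missed Gm10801, which shares sequence with the Gm21738 peak, so the number of coding-exon peaks in less exact repeats is not known.

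All 11 surface ectoderm markers checked, among them Krt5, Krt14, Cdh1 and Trp63, had a control peak within 1 kb of their start site. So did all 7 mesenchyme markers and 2 of 4 blood markers, with Ptprc and Gata1 lacking one, so this check does not separate the cell types. The part of other cell types in the coding-exon peaks was not tested.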

How the data were processed

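Control (Tfap2aflox/+ with Tfap2bflox/+, no Crect) and EDKO ectoderm gave 2 ATAC-seq libraries each. Per the study's methods, adapters were trimmed with NGmerge, reads were aligned to mm10 with Bowtie2, which could report up to 10 positions for a read pair, and peaks were called with Genrich in ATAC-seq mode on the libraries of a group together. The lists deposited by the authors give, per peak, a Genrich score capped at 1000, the area summed from −log10 p as another score, and the unadjusted −log10 p of the summit base. The summit offset was deposited as a further value in bp. These lists give no counts and no value for a single library, so the depth behind a peak is unknown and no test between samples was made.

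Peaks were placed on GRCm38 with GENCODE mouse release 21. Each of 21951 protein-coding genes had 1 principal transcript and 1 start site, taken by APPRIS rank, then coding length. The coding-exon peaks and gene lists were chosen with earlier results of these data known. Summits were classed as coding exon, untranslated exon, intron or between genes, in that order. Overlap was counted from 1 bp. Shares have 95% Wilson intervals, densities exact Poisson intervals and medians order-statistic intervals. Zero counts were given an upper limit of 3 counts, as a share or per Mb. The peaks of 1 list are not replicates, and no p-value was computed. CTCF and p53 family consensus sequences were matched by degenerate strings. Weighted shares used 4 groups each of summit height, GC content and distance, and were added after the values were seen, as were the tandem repeat measure and 3 of the alternative settings. Named genes were the 10 tallest single-copy coding-exon peaks, the 8 genes with the most, the AP-2-dependent coding-exon peaks by area, and up to 4 genes per list by summit. Genes that tied in number of coding-exon peaks were taken in order of summed peak area. Python 3.11.15, numpy 2.4.6, pandas 2.3.3, scipy 1.17.1 and matplotlib 3.10.9 were used. The programs were tested on simulated data, and a direct recount of class and distance for 400 peaks differed at none. Coverage tracks, H3K4me3 data and RNA-seq were not used here. The results for some genes are not reported here.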

Additional observations from a re-analysis of the deposited data

How the results depend on the processing

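No paired analysis was possible because each call merged its libraries, and for the same reason no library could be left out. The number of coding-exon peaks was 1245 and ranged with the rule. It was 919 when the 1 kb distance was measured from the starts of every transcript of protein-coding genes. A minimum area of 500 left 826, a density of 28.4 per Mb, a median summit of 5.81, a median width of 868 bp, the AP-2 string at 23.2% and 54.8% of summits in internal exons. A distance of more than 5 kb from start sites left 791 in 725 genes, with 33.9 per Mb, a median width of 576 bp and 69.4% in internal exons. Coding exons kept the highest density in both cases, with 20.5 and 28.2 per Mb in untranslated exons and 13.8 and 23.9 in introns. Windows of 50 and 200 bp on each side of the summit gave the AP-2 string at 10.6% and 32.2%. Another transcript start lay within 500 bp of 21.9% of summits, and the start of a protein-coding transcript within 1 kb of 9.88%. The share overlapping an AP-2-dependent region stayed between 1.29% and 2.54% over its 10 alternatives, all within the interval of the main value. It was 2.30% with an area of at least 500, against 8.68% in introns, 2.54% with summits more than 1 kb from any transcript start, against 5.63%, 1.77% without Tfap2a and Tfap2b, and 1.77% without tandem repeats. The setting without tandem repeats left out Gm21738 but kept Gm10801, which matched itself at 36.8% of bases. In all, 76 alternatives were computed for 16 results.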
